A study of Mus musculus
Rattus norvegicus and Mus musculus and Rattus norvegicus with 95 samples.

Results

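Transcripts of Polycomb subunits were followed from stem cells to differentiated cells carrying a haploid mouse and a haploid rat genome (allodiploid embryonic stem cells, AdESCs). The subunits were chosen by gene symbol: Ezh2, Eed, Cbx7, Suz12 and Jarid2. Of these 5, Ezh2, Eed and Cbx7 have a row among the 13926 mouse-rat homologues of both tables, and Suz12 and Jarid2 were not analysed here. The bulk set held 8 libraries labelled as G0/G1 stem cells, each from another line: F145 and F146 from mouse, DA53 and DA25 from rat, and MR1-1, MR2-1, RM1-1 and RM2-1 from AdESCs. Named C1 in the labels, the single-cell set held 87 cells in 11 samples, a sample being the cells with 1 label from 1 AdESC line. AdESC cells numbered 6 (MR1-1), 8 (MR2-1), 4 (RM1-1) and 6 (RM2-1). Differentiated cells numbered 63: cells of EBs (embryoid bodies, clumps in which stem cells differentiate) of MR2-1 (12) and RM1-1 (5), fibroblasts (10) from a mouse chimaera of MR1-1, neurons (8) and testis somatic cells (4) from a mouse chimaera of RM1-1, and lung cells (4) and testis somatic cells (20) from a rat chimaera of RM2-1. The labels trace every differentiated sample to 1 AdESC line; a chimaera also holds cells of its host, and no value given here tells them from AdESC-derived cells. No label gives the strain, the sex of the lines, the culture medium, the age of the EBs or the age of the animals, and each bulk library is 1 line.

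Polycomb proteins keep developmental genes silent through marks on histones. Polycomb repressive complex 2 (PRC2) methylates histone H3 at lysine 27: Ezh2 or its relative Ezh1 is the catalytic subunit, Eed binds the methylated histone and switches the enzyme on, and Suz12 holds the complex together, while Jarid2 and Mtf2 help bring it to chromatin. Polycomb repressive complex 1 (PRC1) carries the ubiquitin ligase Rnf2, and in its canonical form a Cbx protein such as Cbx7 reads the PRC2 mark. In mouse embryonic stem cells Cbx7 is known as the main Cbx protein of PRC1, and other Cbx proteins take its place as cells differentiate. Ezh2 is known to be high in dividing cells and Ezh1 to prevail in resting ones.

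In the GENCODE vM21 annotation of the mouse genome (GRCm38, the same assembly as the mm10 named in the submitters' processing notes) all 3 measured subunits lie on the minus strand. Ezh2 spans chr6:47530139-47595341 with 20 exons in the transcript used, Eed spans chr7:89954654-89980983 with 12 exons, and Cbx7 spans chr15:79915807-79971119 with 7 exons. The first 60 coding bases of each, 5′ to 3′ with the start codon in capitals, are shown to fix which open reading frame each name stands for.
Ezh2: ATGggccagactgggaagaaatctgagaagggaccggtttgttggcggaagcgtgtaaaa
Eed: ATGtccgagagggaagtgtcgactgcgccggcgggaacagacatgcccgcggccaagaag
Cbx7: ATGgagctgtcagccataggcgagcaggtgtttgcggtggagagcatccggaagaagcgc
Ezh2 and Cbx7 have close relatives in the tables, so the longest run of bases that each shares with a relative bears on whether reads could be assigned to the wrong gene. The longest run shared by the coding sequences of Ezh2 (2238 bases) and Ezh1 is 17 bases, and the longest shared by Cbx7 (474 bases) and Cbx6 is 15 bases; Cbx7 shares at most 12 bases with Cbx2 and 12 with Cbx8. Each run is shown in capitals within 60 coding bases of the first gene.
Ezh2, coding bases 2179 to 2238, run shared with Ezh1: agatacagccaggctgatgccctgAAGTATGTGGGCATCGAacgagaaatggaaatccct
Cbx7, coding bases 102 to 161, run shared with Cbx6: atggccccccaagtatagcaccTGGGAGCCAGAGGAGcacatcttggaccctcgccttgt
Over all mouse transcripts of other genes, 44 of the 2738 windows of 50 bases in the Ezh2 transcript recur, all in the overlapping Gm26625 on the opposite strand. For Eed 212 of 2018 windows recur, in E230029C05Rik on the opposite strand, and for Cbx7 51 of 2850 recur, in Apobec3 on the opposite strand. No source used here says that counting used strand, so reads of these overlaps cannot be told apart. Rat sequences were not used here.

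Values are FPKM, fragments scaled to transcript length and library size, and how the authors joined the mouse and rat values of an AdESC gene is not given in the sources used here. A bulk library summed to between 312695 and 377664 FPKM and a cell to between 213045 and 411555, and genes at 1 FPKM or more numbered 4211 to 6246 per AdESC cell and 3444 to 6076 per differentiated cell. The number of reads behind a value is unknown. Marker lists went against the label in 2 samples. The RM2-1 cells labelled lung had 8 of 9 lung epithelium markers listed at 0 and a summed 0.0977 FPKM of that list. Beside this they had 1028 FPKM of Cyp11a1, 102 FPKM of Star (both of steroid synthesis) and 97.9 FPKM of Inha (the inhibin alpha chain). Other markers of those cell types were absent: 3 of 7 Leydig and 4 of 8 Sertoli markers were listed at 0. Their smooth muscle and fibroblast lists summed to 3358 and 1225 FPKM, and which cells these are was not tested. The RM1-1 cells labelled testis had 871 FPKM of Fabp7 and 235 FPKM of Gap43, genes of neural progenitors and growing axons, against 1389 and 224 in the RM1-1 neurons. They had 6 of 7 Leydig and 5 of 8 Sertoli markers listed at 0, beside 4 of 7 and 4 of 8 in RM2-1 testis. The RM2-1 lung and RM1-1 testis samples were therefore left out in an added limma fit. This covered the subunits, the Polycomb complex genes that passed, Wnt5a and Cdx2. Permutation tests, list counts and medians, shares and correlations kept all samples. The RM1-1 cells labelled neuron were mixed in their markers: the mean log2(FPKM + 1) was 3.90 over 13 neuron markers (summed level 604 FPKM, none listed at 0) and 3.92 over 8 glia markers (summed level 1757 FPKM, 1 listed at 0). Tubb3 and Stmn2 of neurons were at 169 and 119 FPKM, Rbfox3 of mature neurons at 0.0594, and Slc1a3 and Olig1 of glia at 316 and 35.7. They are called neurons here after their label only. Without them the differences between differentiated and AdESC samples were -2.81 for Cbx7 (adjusted p = 0.000971), -1.78 for Eed (0.00142) and -0.99 for Ezh2 (0.130). Of 9 measured pluripotency markers 7 fell in differentiated samples (8.57% of all genes were called lower), Nanog and Pou5f1 among them, and the mean log2(FPKM + 1) of the list was 5.50 to 5.899 in AdESC samples and 0.621 to 1.72 in differentiated ones. Differentiated samples had at most 0.148 FPKM of Nanog, 0.226 of Esrrb and 0 of Fgf4. These genes passed the filter on low values (a mean of 1 FPKM over the samples) only through AdESC samples, so they could only be called lower. Klf4 and Lin28a did not pass the test (adjusted p = 0.0510 and 0.0615). Klf4 was 106.5 FPKM in MR2-1 EB against 63.2 to 101.8 in AdESC samples, and Lin28a was 31.2 and 45.7 FPKM in the EBs against 32.9 to 48.4. MR1-1 fibroblasts, with the highest list mean of the differentiated samples (1.72), had 67.1 FPKM of Klf4 and 19.6 of Lin28a. Klf4 was 3.59 to 19.8 FPKM in the remaining differentiated samples, and Lin28a at most 0.0584 in the other samples from chimaeras. Sample means stand for their cells in every test, since cells of a sample share their source, and the labels name no separate cultures or animals within a line, so each p reflects how far these lines and samples spread.

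In bulk, the mean levels of Ezh2 and Eed were highest in mouse ESCs and lowest in rat ESCs, with AdESCs between, while the PRC2 genes Ezh1, Rbbp4 and Rbbp7 had their lowest means in mouse ESCs. Ezh2 was 51.98 FPKM in F145 and 77.7 in F146, 32.4 in DA53 and 23.1 in DA25, and 48.2, 31.6, 43.8 and 34.7 in MR1-1, MR2-1, RM1-1 and RM2-1. Both mouse lines lay above every other line, and AdESC line MR2-1 lay below rat line DA53. The rat lines had less Ezh2 than the mouse lines, by a log2 difference of -1.19 ± 0.33 (SE) on the log2(FPKM + 1) scale, the scale of every fold change given here (limma, adjusted p = 0.0231). That call was not kept without F146 (adjusted p = 0.111), without DA53 (0.0568) or without DA25 (0.167), nor with only the mouse and rat libraries in the fit (0.0506). AdESCs differed from mouse ESCs by -0.69 ± 0.28 (adjusted p = 0.214) and from rat ESCs by 0.50 ± 0.28 (adjusted p = 0.299), neither past the threshold of 0.05. In bulk RNA, fewer cells of a type and less RNA per cell cannot be told apart. The submitters' processing notes name mm10 and rn5 as the reference genomes. Species and reference can therefore not be told apart in any bulk comparison given here, those with AdESCs included.

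Eed, the PRC2 subunit that reads the mark, separated the 3 kinds of line. It was 63.3 and 73.4 FPKM in F145 and F146, 17.5 and 16.4 in DA53 and DA25, and 51.1, 35.7, 54.7 and 33.3 in MR1-1, MR2-1, RM1-1 and RM2-1. No AdESC line overlapped either parental species. How many of all genes separate the lines in this way was not counted. Eed was lower in rat than in mouse ESCs by 1.94 ± 0.31, a log2 difference of -1.94 (adjusted p = 0.00158), and higher in AdESCs than in rat ESCs by 1.28 ± 0.27 (adjusted p = 0.0154). The second call was lost without DA53 (adjusted p = 0.130) or without DA25 (0.146), which leave a single rat library assumed to vary like the others. The difference between AdESCs and mouse ESCs, -0.66 ± 0.27, did not pass (adjusted p = 0.211). The AdESC mean of 43.7 ± 10.8 FPKM (SD, n = 4) lay beside a midpoint of 42.7 FPKM between the parental means of 68.3 ± 7.16 (SD, n = 2) and 17.0 ± 0.795 (SD, n = 2).

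Cbx7, the reader of the mark in PRC1, showed no such order. It was 34.05 FPKM in F145, 12.2 in F146, 36.5 in DA53, 30.8 in DA25, and 43.9, 30.1, 36.1 and 19.3 in MR1-1, MR2-1, RM1-1 and RM2-1. F145 lay between the rat lines and F146 below all other lines, while MR1-1 lay above all of them. No comparison of Cbx7 passed: the log2 differences were 0.57 ± 0.42 for AdESC against mouse (adjusted p = 0.494), -0.11 ± 0.42 for AdESC against rat (0.897) and 0.68 ± 0.48 for rat against mouse (0.323). The 2 differences from mouse changed sign without F146, to -0.13 and -0.02. Beside these values, the 18 measured markers of fibroblasts had a mean log2(FPKM + 1) of 5.47 in F145 and 3.29 in F146, from 2.30 to 3.28 in the AdESC lines, and 1.11 and 1.10 in DA53 and DA25, each with 9 of the 18 listed at 0. Their summed level was 3186 and 548 FPKM in the mouse lines, 485 to 660 in AdESC lines and 376 to 727 in rat lines. The part of other cells in the Cbx7 values was not tested.

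Ezh1, the second catalytic subunit, ran opposite to Ezh2 in these lines. It was 4.46 and 11.0 FPKM in F145 and F146, 38.4 and 49.6 in DA53 and DA25, and 10.7, 30.4, 17.6 and 38.5 in MR1-1, MR2-1, RM1-1 and RM2-1. Rat ESCs had more Ezh1 than mouse ESCs by 2.46 ± 0.56 (adjusted p = 0.0102). As a share of the summed Ezh1 and Ezh2 FPKM, Ezh2 made up 92.1% and 87.6% in F145 and F146, 45.8% and 31.8% in DA53 and DA25, and 81.8%, 50.96%, 71.3% and 47.4% in MR1-1, MR2-1, RM1-1 and RM2-1. Among AdESC lines, MR1-1 and RM1-1 were above MR2-1 and RM2-1 in Ezh2 and Eed and below them in Ezh1; with 2 lines on each side an exact permutation test cannot go below p = 0.333, and none was run.

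**Figure D1:**
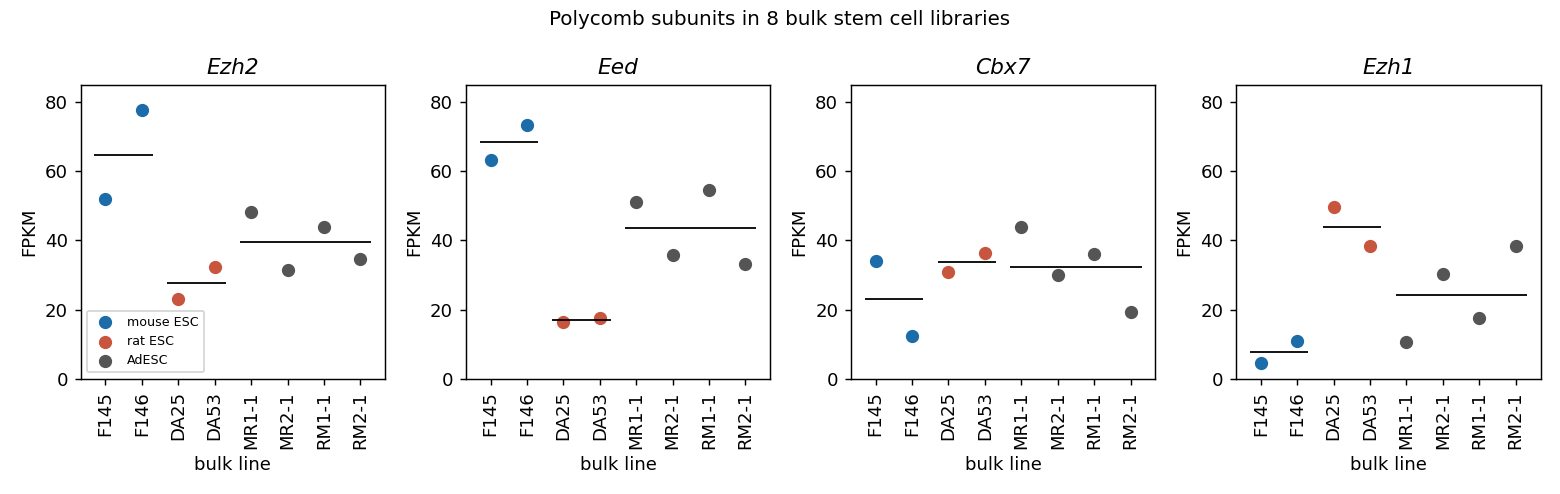
FPKM (vertical axis, the same in all panels) of Ezh2, Eed, Cbx7 and Ezh1 in the 8 bulk lines (horizontal axis), 1 point per library, with a line at each group's mean. Eed falls from 63.3 and 73.4 in the mouse lines to 16.4 and 17.5 in the rat lines with AdESCs between, and Ezh1 is highest in rat line DA25 at 49.6.

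Of the 30 Polycomb complex genes with a row among 40 listed, which cover PRC2, PRC1, the H3K27 demethylases and the PR-DUB deubiquitinase, 29 were tested in bulk. Between rat and mouse ESCs 3 were higher in rat (Bcor, Ezh1 and Rbbp7) and 6 lower (Eed, Ezh2, Mtf2, Phc1, Phf1 and Scmh1), where 26.6% of all 8794 genes tested were called. The median over the 29 genes was 0.279 on the log2 scale, beside 0.0843 over all genes. Scaling to the upper quartile shifted the all-gene median here by -0.153, and Ezh2 and Eed then differed by -1.36 and -2.11. Between AdESCs and rat ESCs Eed, Phc1 and Scmh1 were higher in AdESCs and Bmi1 lower, where 9.7% of all genes were called, 509 higher and 344 lower (555 and 240 when scaled to the upper quartile, which shifted the all-gene median by 0.13). Between AdESCs and mouse ESCs 1 of the 29, Rbbp7, a histone-binding subunit of PRC2, was higher in AdESCs by 1.13 ± 0.25 (adjusted p = 0.0423). None was lower, and 3.89% of all genes were called, a share close to that of the 29. No alternative fit is given here for Rbbp7. Rbbp7 was 85.8 and 125 FPKM in F145 and F146 and between 179 and 267 in the AdESC lines.

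In single cells, the mean of Cbx7 reached 1 FPKM in AdESC samples only. Sample means were 8.40, 2.77, 6.50 and 9.15 FPKM in AdESC cells of MR1-1, MR2-1, RM1-1 and RM2-1. They were 0.0122 in MR2-1 EB, 0.112 in RM1-1 EB, 0.00859 in fibroblasts, 0.0215 in neurons, 0 in the lung sample, 0.0153 in RM1-1 testis and 0.00839 in RM2-1 testis. The groups did not overlap: the highest differentiated sample, RM1-1 EB, was far under the lowest AdESC sample, MR2-1. How many of all genes separate without overlap was not counted, here or for the genes below. Differentiated samples were lower by a log2 difference of -2.81 ± 0.43 (limma, adjusted p = 0.000442), which the added 1 FPKM makes smaller than the ratio of the levels. An exact two-sided permutation test over the 330 splits of 7 against 4 samples gave p = 0.00303, the smallest it can give. It treats all samples as interchangeable, though several share a line, so this p may be too small. Without the RM1-1 testis and RM2-1 lung samples the difference was -2.80 (adjusted p = 0.00195). Cbx7 passed the filter on low values (a mean of 1 FPKM over the samples) only through its AdESC samples. Its means in AdESC cells were below the 19.3 to 43.9 FPKM of the same lines in bulk. AdESC means of Ezh2 and Eed were instead higher in single cells (62.3 and 69.7 FPKM) than in bulk (39.6 and 43.7). Why they differ was not tested, and a low Cbx7 value may be a missed transcript. Of all 8421 genes tested 15.9% were called, and 8.57% were called lower in differentiated samples; 1343 genes were called with all samples and 1227 without those 2 samples.

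The same split was seen cell by cell. Cbx7 reached 1 FPKM in 17 of 24 AdESC cells and in 0 of 63 differentiated cells. Taken sample by sample, the exact binomial 95% upper limit of that share ran from 16.8% in RM2-1 testis (20 cells) to 60.2% in the lung sample and RM1-1 testis (4 cells each). In AdESC samples the cells at 1 FPKM or more were 3 of 6 in MR1-1 (exact binomial 95% interval 11.8% to 88.2%), 6 of 8 in MR2-1 (34.9% to 96.8%), 3 of 4 in RM1-1 (19.4% to 99.4%) and 5 of 6 in RM2-1 (35.9% to 99.6%). These limits cover the number of cells only and concern cells at 1 FPKM or more, not cells expressing the gene. Stem cells were uneven: MR1-1 held 2 cells listed at 0 and 1 at 35.2 FPKM, and the median over the 24 cells was 2.32 FPKM. Of the differentiated cells 53 were listed at 0 and the highest, an RM1-1 EB cell, had 0.389 FPKM. Ezh2 and Eed reached 1 FPKM in 60 and 51 of the same 63 cells.

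Eed was also lower in every differentiated sample. Sample means were 72.7, 55.9, 69.9 and 80.3 FPKM in AdESC cells of MR1-1, MR2-1, RM1-1 and RM2-1. They were 20.6 in MR2-1 EB, 31.4 in RM1-1 EB, 16.5 in fibroblasts, 27.1 in neurons, 13.7 in the lung sample, 20.99 in RM1-1 testis and 16.9 in RM2-1 testis. The groups did not overlap, and the mean of the differentiated samples was 0.302 of the AdESC mean (21.02 ± 6.25 FPKM, SD, n = 7, against 69.7 ± 10.2, SD, n = 4). The log2 difference was -1.72 ± 0.30 (limma, adjusted p = 0.00122), and the exact permutation test, which takes no account of shared lines, gave p = 0.00303. Without the RM1-1 testis and RM2-1 lung samples it was -1.62 (adjusted p = 0.00296). Unlike Cbx7, Eed persisted in many cells: all 24 AdESC cells and 51 of 63 differentiated cells reached 1 FPKM. The spread over cells was wide within samples, from 0.531 to 137 FPKM among the 5 RM1-1 EB cells and from 2.74 to 125 among the 8 MR2-1 AdESC cells.

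Ezh2 did not separate stem from differentiated samples. Means were 59.2 FPKM in MR1-1 AdESC cells, 69.9 in MR2-1, 55.3 in RM1-1 and 64.7 in RM2-1. Differentiated means were 17.7 in MR2-1 EB, 82.3 in RM1-1 EB, 21.3 in fibroblasts, 36.01 in neurons, 27.3 in the lung sample, 58.1 in RM1-1 testis and 16.7 in RM2-1 testis. Of the 7 differentiated samples 5 lay below the lowest AdESC sample, RM1-1 testis lay within the AdESC range, and RM1-1 EB lay above it. The log2 difference of -0.96 ± 0.41 did not pass (limma, adjusted p = 0.124), nor did the exact permutation test (p = 0.0697), and without the RM1-1 testis and RM2-1 lung samples it was -1.09 (adjusted p = 0.0971). Without RM1-1 EB it was -1.18 and passed (adjusted p = 0.0369), so that 1 sample decides the call; a p that misses the threshold does not show equal levels. Ezh2 reached 1 FPKM in all 24 AdESC cells and in 60 of 63 differentiated cells, with medians of 64.9 and 20.2 FPKM.

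**Figure D2:**
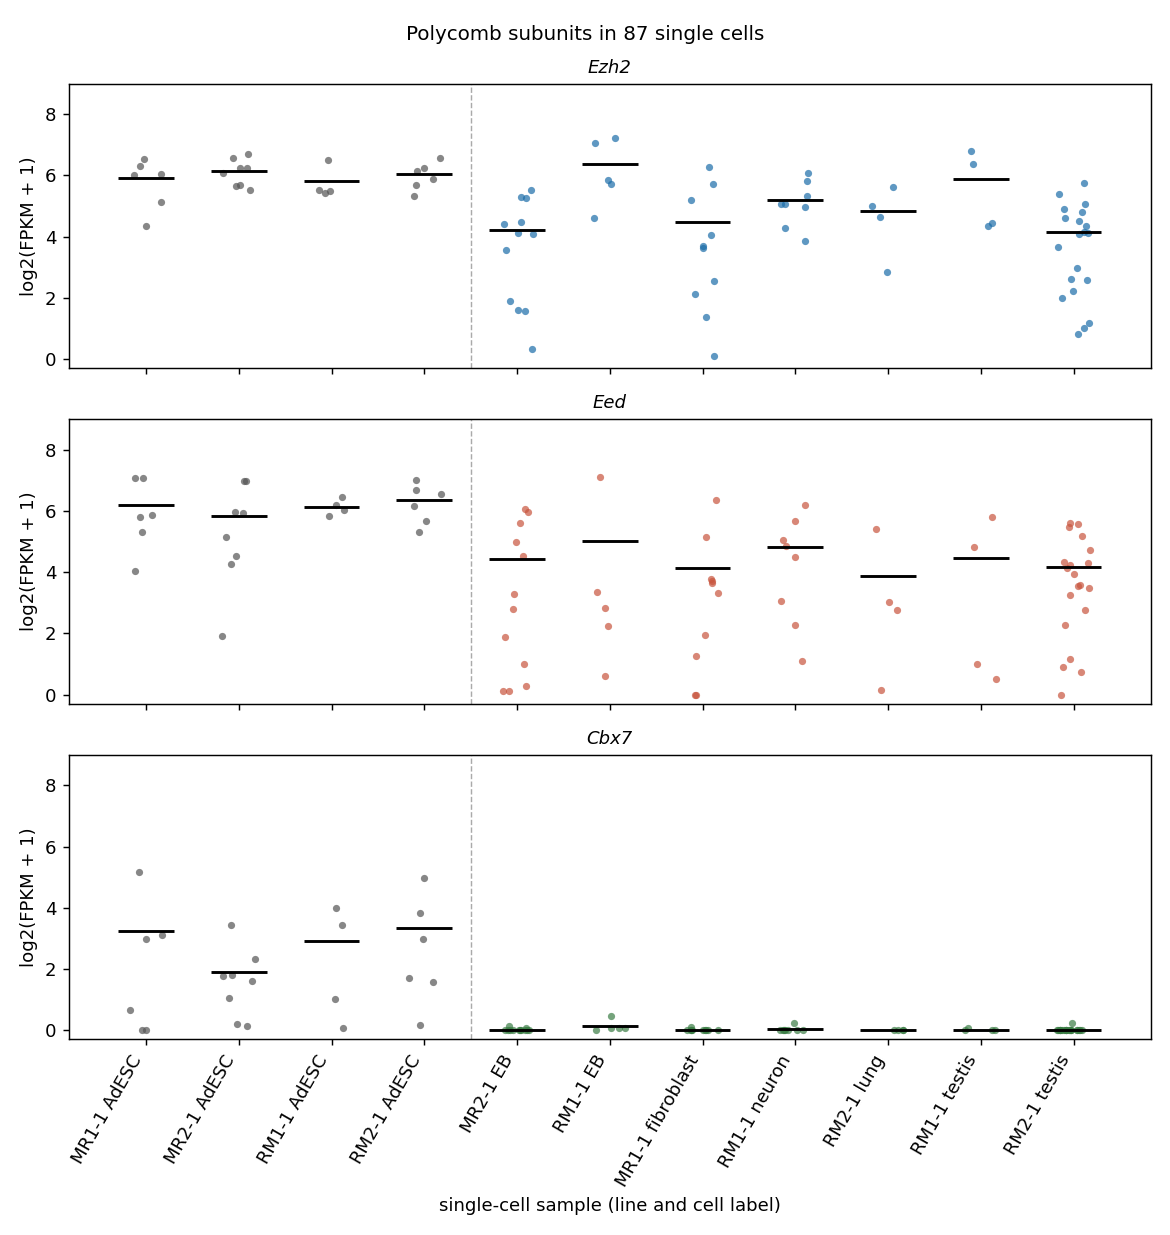
Log2(FPKM + 1) (vertical axis) of Ezh2, Eed and Cbx7 in each of 87 cells, by sample (horizontal axis), with a bar at the log2 of the sample's mean FPKM + 1; AdESC cells are grey and stand left of the dashed line. Cbx7 lies at or near 0 in all 63 differentiated cells, Eed spreads over the whole range there, and the Ezh2 bars of RM1-1 EB and RM1-1 testis stand at the height of the AdESC samples.

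The 3 differentiated samples of line RM1-1 held the 3 highest values of Ezh2 and of Eed among the 7 differentiated samples. For Eed, RM1-1 testis at 20.99 FPKM lay close to MR2-1 EB at 20.6. The order of Cbx7 is not read, since its highest differentiated mean was 0.112 FPKM and 53 of 63 differentiated cells were listed at 0. For Ezh2 the RM1-1 values were 82.3 FPKM in EB, 58.1 in testis and 36.01 in neurons, while the samples of the other lines ran from 16.7 to 27.3. RM1-1 AdESC cells had the lowest Ezh2 of the AdESC samples, at 55.3 FPKM. Against the AdESC cells of the same line, Ezh2 differed on the log2 scale by -1.93 in MR2-1 EB, 0.57 in RM1-1 EB, -1.43 in fibroblasts, -0.60 in neurons, -1.21 in the lung sample, 0.07 in RM1-1 testis and -1.89 in RM2-1 testis. Eed was lower than in the AdESCs of its own line in all 7, by differences from -2.47 in the lung sample to -1.13 in RM1-1 EB. No cell label other than AdESC was sampled in all 4 lines, so the line and the kind of cell cannot be told apart; with the line as a block, the difference was -1.12 ± 0.38 for Ezh2 (adjusted p = 0.0565) and stayed past the threshold for Eed (-1.79, adjusted p = 0.00187) and Cbx7 (-2.86, adjusted p = 0.00132).

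Levels of cell cycle genes are given beside Ezh2. The mean log2(FPKM + 1) of 18 G1/S genes ran from 5.70 to 5.99 in AdESC samples and was 4.72 in RM1-1 EB, 4.94 in RM1-1 testis, 5.25 in neurons, 4.92 in MR2-1 EB, 4.27 in RM2-1 testis, 4.13 in fibroblasts and 3.17 in the lung sample. That of 17 G2/M genes ran from 5.92 to 6.30 in AdESC samples and was 6.43 in RM1-1 EB, 5.25 in RM1-1 testis, 6.08 in neurons, 4.56 in MR2-1 EB, 4.41 in RM2-1 testis, 3.07 in fibroblasts and 2.56 in the lung sample. The 3 RM1-1 samples that led in Ezh2 also had the highest G2/M levels among differentiated samples, while MR2-1 EB and RM1-1 testis had nearly equal G1/S levels and Ezh2 of 17.7 and 58.1 FPKM. Of the 18 G1/S genes 9 fell in differentiated samples and none rose, where 8.57% of all genes were called lower, with a median of -1.33 beside 0.02 over all genes. Of the 17 G2/M genes 2 fell, a share close to that of all genes, and none rose, with a median of -1.38. The part of the cell cycle in the Ezh2 values was not tested.

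**Figure D3:**
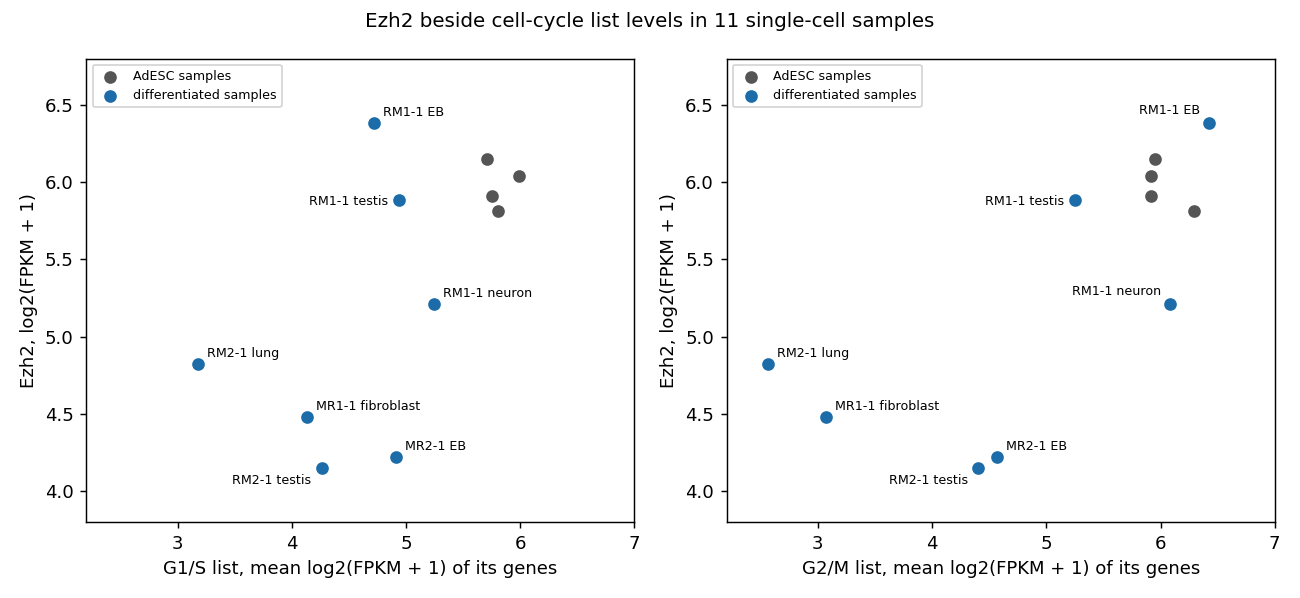
Ezh2 as log2(FPKM + 1) of the sample mean (vertical axis) against the mean log2(FPKM + 1) of 18 G1/S genes (left) or 17 G2/M genes (right) on the horizontal axis, 1 point for each of the 11 single-cell samples, with differentiated samples named. RM1-1 EB and RM1-1 testis have as much Ezh2 as the AdESC samples at lower G1/S levels (4.72 and 4.94), and the lung sample has the lowest level of both lists.

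Ezh1 did not differ past the test, and its mean was lower in differentiated samples (4.35 FPKM) than in AdESC samples (10.3). In AdESC cells of MR1-1, MR2-1, RM1-1 and RM2-1, Ezh1 means were 9.70, 6.16, 19.4 and 5.84 FPKM. They were 13.2 in MR2-1 EB, 3.03 in RM1-1 EB, 1.16 in fibroblasts, 3.40 in neurons, 7.30 in the lung sample, 1.01 in RM1-1 testis and 1.36 in RM2-1 testis. The groups overlapped, and the difference of -1.29 ± 0.59 did not pass (adjusted p = 0.149). Ezh2 made up at least 57.2% of the summed Ezh1 and Ezh2 FPKM in every differentiated sample, that lowest share being in MR2-1 EB, and 98.3% in RM1-1 testis. Cells with Ezh1 at 1 FPKM but Ezh2 below it numbered 0 of 24 AdESC cells and 1 of 63 differentiated cells.

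The tested Cbx relatives of Cbx7, which were Cbx2 and Cbx8, did not differ past the test either, and their estimates were negative. Cbx2 was 2.12, 5.99, 3.93 and 3.87 FPKM in AdESC cells of MR1-1, MR2-1, RM1-1 and RM2-1, and from 0 (lung and RM1-1 testis) to 12.0 (RM1-1 EB) in differentiated samples, a difference of -0.99 ± 0.70 (adjusted p = 0.339). Cbx8 was between 0.0229 and 7.12 FPKM in AdESC samples and between 0 and 2.46 in differentiated ones (-0.37 ± 0.59, adjusted p = 0.694). Cbx6 was below the filter and so not tested; it was 0.125 to 0.482 FPKM in AdESC samples, 0.0993 and 0.0115 in EBs and 0.934 to 3.84 in the 5 samples from chimaeras, means that rest on few cells. Cbx6 reached 1 FPKM in 1 of 10 fibroblasts (37.1 FPKM), 1 of 8 neurons (6.42), 1 of 4 cells of the lung sample (3.90), 2 of 4 RM1-1 testis cells and 2 of 20 RM2-1 testis cells. Cbx7 made up 31.1% to 61.05% of the summed FPKM of Cbx2, Cbx6, Cbx7 and Cbx8 in the AdESC samples, 43.7% to 80.1% in the bulk lines and at most 1.13% in the differentiated samples.

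Among all Polycomb complex genes 26 passed the filter in the single-cell fit: 6 fell in differentiated samples, 2 rose and 18 did not pass, where 15.9% of all genes were called in either direction. Their median difference was -0.63, beside 0.02 over all genes, and without Ezh2, Eed and Cbx7 it was -0.37 over 23 genes. The genes that fell besides Eed and Cbx7 were Mtf2, Epop, Pcgf6 and Rnf2. Mtf2, which recruits PRC2 to CpG-rich DNA, was 79.7, 88.7, 88.8 and 128 FPKM in the AdESC samples and between 2.06 (RM1-1 testis) and 32.6 (RM1-1 EB) in differentiated ones, without overlap (-2.98 ± 0.53, adjusted p = 0.00146). Epop, a PRC2 partner of stem cells listed in the tables as E130012A19Rik, was 9.49, 7.16, 14.1 and 8.27 FPKM in AdESC samples and 11.0 FPKM in MR2-1 EB, within the AdESC range, but at most 1.69 FPKM in the other 6 (-2.55 ± 0.66, adjusted p = 0.0161). Without RM1-1 AdESC the Epop call was lost (adjusted p = 0.0622).

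On the PRC1 side, Pcgf6, a subunit of a variant PRC1, was 16.3 to 34.7 FPKM in AdESC samples and 1.07 to 10.52 in differentiated ones, again without overlap (-2.16 ± 0.50, adjusted p = 0.00875). Rnf2, the ubiquitin ligase, was 52.9 to 100.2 FPKM in AdESC samples and 16.3 to 46.8 in differentiated ones, a smaller difference of -1.003 ± 0.33 whose adjusted p of 0.0481 passed narrowly and held in 5 of 19 alternatives (adjusted p from 0.0301 to 0.175). The genes that rose were Phc2, a polyhomeotic subunit of canonical PRC1, and Yaf2, a subunit of variant PRC1. Phc2 was 2.06 to 5.50 FPKM in AdESC samples and 13.1 to 43.1 in differentiated ones other than MR2-1 EB, which had 3.39 (2.14 ± 0.56, adjusted p = 0.0182). Without the RM1-1 testis and RM2-1 lung samples Phc2 did not pass (adjusted p = 0.0512), nor did it without MR1-1 AdESC (0.0522), RM1-1 AdESC (0.0696) or RM2-1 AdESC (0.0505). Yaf2 was 2.38 to 5.80 FPKM in AdESC samples and 6.01 to 32.8 in differentiated ones (1.85 ± 0.48, adjusted p = 0.0177), and did not pass without MR1-1 AdESC (0.0646), RM1-1 AdESC (0.0510) or RM2-1 AdESC (0.0514). Rbbp4 and Rbbp7, the PRC2 histone-binding subunits, differed by -0.47 ± 0.23 (adjusted p = 0.177) and -0.23 ± 0.35 (0.686).

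**Figure D4:**
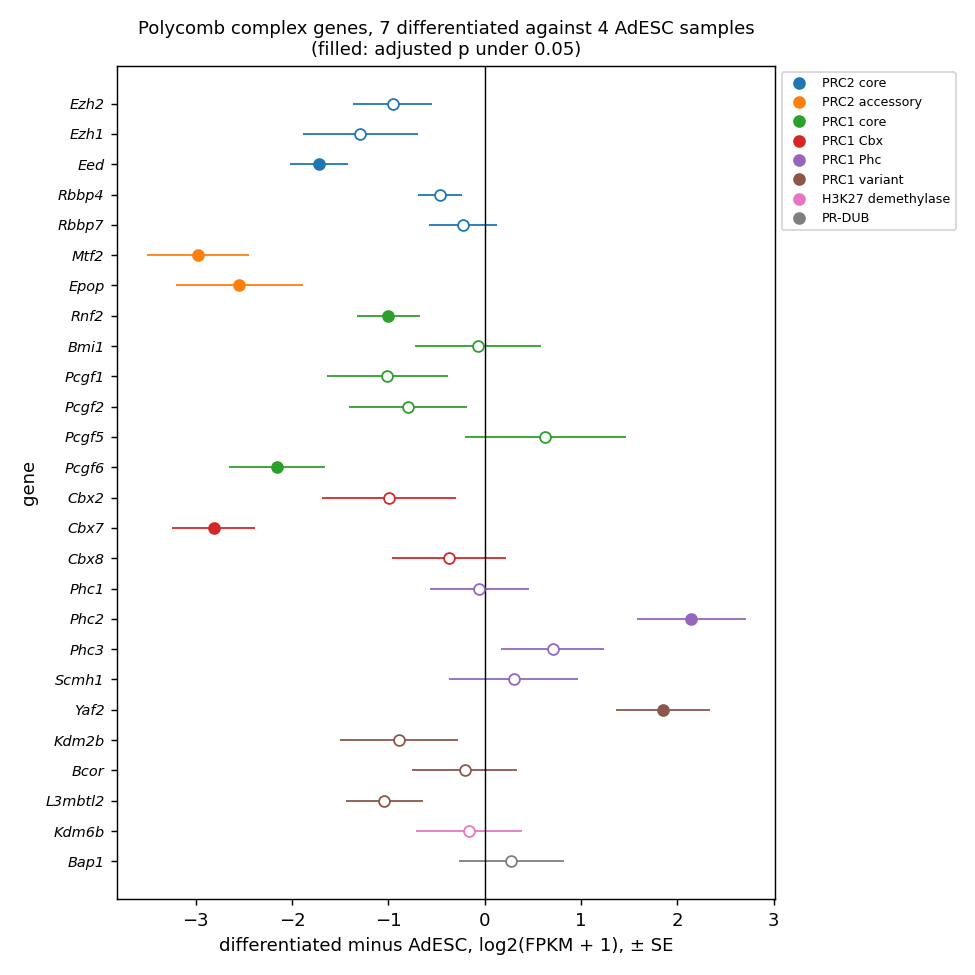
Log2 difference between 7 differentiated and 4 AdESC samples (horizontal axis, with SE bars) for the 26 Polycomb complex genes tested (vertical axis), coloured by complex; filled points have an adjusted p under 0.05. Mtf2, Cbx7, Epop, Pcgf6, Eed and Rnf2 lie to the left, Phc2 and Yaf2 to the right, and Ezh2 is an open point at -0.96.

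Of 44 genes known as Polycomb targets in stem cells, 37 had a row and 19 passed the filter. Of the 19, 1 rose, 1 fell and 17 did not pass the test, a share of calls below the 15.9% of all genes: Wnt5a, a signalling ligand, rose by 2.87 ± 0.53 (adjusted p = 0.00189), and Cdx2, a trophoblast and gut factor, fell by 2.88, a difference of -2.88 ± 0.39 (adjusted p = 0.000151). Cdx2, like Cbx7, passed the filter only through its AdESC samples, so it could only be called lower. Its difference from AdESCs was -2.88 in EBs and in chimaera-derived samples alike. The median over the 19 was 0.643, beside 0.02 over all genes. Of the 37 with a row, 23 or 24 were listed at 0 in each AdESC sample and 13 to 25 in differentiated ones. A target near 0 in AdESCs passes the filter only if differentiated samples express it, and could then only be called higher. The median can therefore not be read as a rise of the targets. Wnt5a, whose difference ran from 1.75 to 5.96 over 19 alternatives, may be such a gene.

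Split by origin, Cbx7 was lower than in AdESCs in cells made in culture and in cells from animals. Against the 4 AdESC samples, the 2 EB samples differed by -2.76 ± 0.61 (limma, adjusted p = 0.0191) and the 5 chimaera-derived samples by -2.83 ± 0.47 (adjusted p = 0.00118). With the cell line as a block the EB difference was -2.47 and did not pass (adjusted p = 0.0688), nor did it without MR2-1 EB (0.112), RM1-1 EB (0.0973) or RM2-1 AdESC (0.0503). Eed differed by -1.41 ± 0.41 in EBs (adjusted p = 0.0730) and by -1.84 ± 0.32 in chimaera-derived samples (adjusted p = 0.00151). Ezh2 passed in neither, at -0.68 ± 0.58 (adjusted p = 0.587) and -1.07 ± 0.45 (adjusted p = 0.117). Of all genes 4.06% were called for EBs and 16% for chimaera-derived samples. The comparisons share the AdESC samples. Tested directly, chimaera-derived samples did not differ from EBs in Cbx7 (-0.07 ± 0.59, adjusted p = 0.996), Eed (-0.44 ± 0.40, 0.884) or Ezh2 (-0.39 ± 0.56, 0.929) beyond the spread between samples. In that comparison 0% of all genes were called by limma, 0 also without the trend and 17 with no filter, and 534 had an unadjusted p under 0.05. Without the RM1-1 testis and RM2-1 lung samples, the chimaera-derived differences from AdESCs were -2.83 for Cbx7 (adjusted p = 0.00785) and -1.76 for Eed (0.00655).

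Over the 11 single-cell samples, Eed and Cbx7 moved together (Pearson r = 0.944 on the log2 scale), Ezh2 and Eed less so (0.725) and Ezh2 and Cbx7 least (0.573). These points share the stem-to-differentiated step and the lines, and are given as a description. The genes most like Cbx7 were Fam122b (0.999), Aqp3 (0.998), a water and glycerol channel, and Fgf4 (0.995), a growth factor of stem cells. Each was above 8 FPKM in the mean of AdESC samples and at most 0.0111 in that of differentiated samples. Like Cbx7, these genes passed the filter on low values only through their AdESC samples. Those most like Eed were Set (0.972), a histone chaperone, Usp28 (0.970), a deubiquitinase, and Exosc5 (0.970), a subunit of the RNA exosome. Those most like Ezh2 were Gcat (0.953), an enzyme of threonine breakdown, Apex1 (0.938), a DNA repair nuclease, and Ccar1 (0.932). The AdESC and differentiated means were 1898 and 456 FPKM for Set, and 32.1 and 13.7 FPKM for Gcat.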

How the data were processed

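Both deposited tables hold FPKM, for which the authors used FastQC 0.10.1, TopHat2 2.0.10 and Cufflinks 2.1.1 on mm10 and rn5, per the submitters' processing notes; RNA was extracted with Trizol and libraries came from a TruSeq kit, per the labels' protocols. No table header names the unit. Genes were matched by symbol. Each single-cell sample entered as the mean FPKM of its cells, with no cell left out. Differences were fitted with limma 3.58.1 (R 4.3.3, trend in the prior variance) on log2(FPKM + 1) for genes averaging 1 FPKM or more in the fitted samples (8794 in bulk, 8421 in single cells), with Benjamini-Hochberg adjustment over all genes and a threshold of 0.05. One fit held the 3 bulk groups, and the single-cell fits held 2 or 3 groups. The permutation tests were exact and two-sided and took no account of the line. On simulated data with 100 genes changed by a log2 of 2 and 100 by a log2 of 1, the fit recovered 66 and 14 for differentiated against AdESC (8055 genes). Changes were set only in genes with a mean log2(FPKM + 1) above 3, and simulated samples shared no line. Lower genes such as Cbx7 are therefore not covered. Read depth could not be recovered from the values (the commonest ratio between 2 bulk libraries held for 0.7% to 7.87% of low genes), so no count model was used and precision rests on the spread between samples. No 2 of the 87 cell columns were identical.

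The cell line pairs single-cell samples, since the labels give several samples per line. In 7 same-line pairs of a differentiated and an AdESC sample, deviations from the group means correlated between -0.015 and 0.0356. No correlation was computed between differentiated samples of the same line, so their dependence is not known. The line was left out of the main fit and entered as a replicate block in an alternative. Other alternatives were the pseudocount 0.1, no filter, upper-quartile scaling, no trend, fewer groups, each sample left out, the mean of logs over cells, cells with at least 4000 genes, and detection at 0.1 or 5 FPKM; leaving out the 2 samples whose markers went against their labels was chosen after seeing the data. Named genes were the 5 subunits, Ezh1 and the other Cbx genes, genes of the Polycomb lists past the threshold in differentiated against AdESC samples, and the 3 genes most correlated with each subunit; those called in bulk, and Rbbp4 and Rbbp7, were added after their values were seen. The subunits and all lists were chosen with earlier results of these data known. Gene positions and sequences came from GENCODE vM21, taking the CCDS transcript with the longest coding sequence.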

Additional observations from a re-analysis of the deposited data

Results flagged for a closer look

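In the 7 differentiated samples, Cbx7 in RM1-1 EB (0.112 FPKM) stood apart from the others, its gap to the next sample making up 0.8 of the range on the log2 scale; it was 1 of 12 groups checked, and chance flags about 1 in 20. Ezh2 moved in opposite directions in the 2 EB samples against the AdESC cells of their own line, -1.93 in MR2-1 and 0.57 in RM1-1 on the log2 scale. It also did so in the testis-labelled samples, 0.072 in RM1-1 and -1.89 in RM2-1. Each is 1 sample a line, and these differences between lines were not tested.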

How the results depend on the processing

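Counts of genes called moved by over 1.5 times chiefly when a sample was left out. They ran from 151 to 344 (AdESC against mouse, 342 in the main fit), 223 to 1063 (AdESC against rat, 853), 1059 to 2435 (rat against mouse, 2343), 791 to 1367 (differentiated against AdESC, 1343), 169 to 428 (EB against AdESC, 342), 791 to 1461 (chimaera-derived against AdESC, 1346) and 0 to 23 (chimaera-derived against EB, 0). With only AdESC and mouse libraries 137 were called, and with no filter 17 between chimaera-derived and EB samples. The log2 differences with a sample left out ran from -0.13 to 1.27 for Cbx7 and AdESC against mouse, -0.27 to 0.11 for Cbx7 and AdESC against rat, and -0.021 to 1.38 for Cbx7 and rat against mouse. They ran from 1.17 to 1.40 for Eed and AdESC against rat, and from -1.47 to -0.90 for Ezh2 and rat against mouse (-1.19 with only those groups). For Ezh2 they ran from -1.18 to -0.81 in differentiated against AdESC, -1.76 to 0.40 in EB against AdESC and -1.47 to 0.69 in chimaera-derived against EB, and for Cbx7 from -3.08 to -2.60 in EB against AdESC. Upper-quartile scaling turned Cbx7 in AdESC against rat to 0.030. The EB difference of Eed passed with no filter (-1.41, adjusted p = 0.0350) and with the mean of logs over cells (-2.72, adjusted p = 0.00856), which also turned Eed in chimaera-derived against EB to 0.13. With the cell line as a replicate block Cbx7 in EB against AdESC was -2.47 and no longer passed, and no other call of a subunit changed. The causes were not tested. In differentiated against AdESC, Eed and Cbx7 passed in all 19 alternatives, with adjusted p up to 0.00779 and 0.00278. The share of differentiated cells with Ezh2 was 79.4% at 5 FPKM, with Eed 92.1% at 0.1 and 66.7% at 5 FPKM, and the share of AdESC cells with Cbx7 37.5% at 5 FPKM. Read depth is unknown, so a value of 0 may be a missed transcript, and 4 to 20 cells a sample limit the precision of each mean.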
